A study of Mus musculus with 12 samples.

Results

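The RNA-seq libraries of 12 brain sections, 5 from Wt mice and 7 from Tg (Tg2576) mice, were divided by their level of Ttr, the thyroid hormone carrier transthyretin, which the epithelium of the choroid plexus makes in large amounts. Levels are given as CPM, the count of a gene scaled to a common library size, after TMM normalization, which corrects for differences in composition between libraries. The 7 libraries with Ttr above 100 CPM are called Ttr-rich here and the 5 libraries below 100 CPM are called Ttr-poor, and these 12 are all libraries of the series. The Ttr-rich set held Wt mice 12 and 79 and Tg mice 32, 68, 69, 91 and 92. The Ttr-poor set held Wt mice 41, 80 and 95 and Tg mice 67 and 93. The members of each set were thus chosen by their Ttr CPM, a measured value, so differences in expression between the Ttr-rich and Ttr-poor sets are given as values and counts, with no test.

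Tg mice carry a transgene for human APP with the Swedish mutation, and the Wt mice lack it. The sample labels give an age of 11 months and the methods give an age range that starts there. Each specimen was 1 dissection that contained both dorsal hippocampus and cortex, so each library mixes all cells of that tissue block. Ribosomal RNA was removed, total RNA was sequenced, and libraries were made and sequenced in 2 batches. The strain background of the mice is not given in the labels.

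The choroid plexus is a fringe of vascular tissue that hangs into the ventricles of the brain. Its cuboidal epithelium secretes the cerebrospinal fluid, moves ions and water by a known set of transporters, and forms with its tight junctions the barrier between blood and that fluid. The plexus of the lateral ventricle lies along the hippocampus. Fewer cells of this epithelium in a section and less RNA per cell cannot be told apart in bulk libraries.

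Names could be given to 1349 of the 15928 genes counted. The deposited table has no gene names, and a gene was named only where its mean normalized count matched a single mean in the study's own genotype comparison of these mice. Named genes were therefore already selected for a difference between Tg and Wt mice, and for 1097 of them that difference had an unadjusted p under 0.05 here. Counts over the named members of a list are not independent evidence of a direction.

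The libraries were deep and of similar size. Totals ran from 15768135 to 20996174 counts, with a median of 19179550 in the Ttr-rich and 17891487 in the Ttr-poor set (exact permutation test of the means, two-sided p = 0.263, smallest possible p 0.00126). App, the gene for the amyloid precursor protein, lay between 1214 and 1496 CPM in Wt mice and between 2991 and 5727 CPM in Tg mice, with no overlap. Xist, the RNA of the inactive X chromosome, went against 1 sex label. Wt mouse 41, labelled male, had 3582 Xist counts, whereas the 4 other mice labelled male had at most 1 and the females had between 2732 and 3736. The main differences, the Wt counts and the Tg against Wt fits are given with and without mouse 41. The markers of the labelled tissue were present in every library, with Slc17a7, the vesicular glutamate transporter of cortical and hippocampal neurons, between 948 and 2059 CPM and Prox1, a transcription factor of dentate granule cells, between 10.02 and 23.1 CPM.

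Ttr (plus strand of chromosome 18 of GRCm38, from 20665280 to 20674321) varied over a wide range between these sections. The Ttr-poor libraries had 7.21 CPM in Tg mouse 67, 11.7 in Tg mouse 93, 16.9 in Wt mouse 41, 33.0 in Wt mouse 95 and 45.8 in Wt mouse 80. The Ttr-rich libraries ran from 168 CPM in Wt mouse 79 through 371 in Wt mouse 12 to between 898 and 1581 in the 5 Tg mice, with a median of 1238 over the 7. The highest level was 219 times the lowest. The nearest values on either side of 100 CPM were those of Wt mice 80 and 79, which differed 3.66-fold, and levels within the Ttr-rich set differed up to 9.43-fold. The log2 difference between the sets, with genotype as covariate, was 5.12 (standard error 0.77), or 5.05 without mouse 41.

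The other epithelial markers ran with Ttr. Folr1, the folate receptor that carries folate into the cerebrospinal fluid (chromosome 7), had 0.058, 0.73, 0.11, 1.18 and 0.47 CPM in mice 67, 93, 41, 95 and 80. In the Ttr-rich libraries it had a lowest level of 1.70, a median of 11.3 and a highest level of 15.8 CPM. The sets did not overlap, and the log2 difference was 3.40 (standard error 0.63). The Ttr-poor levels of Folr1 rest on few reads, between 1 and 21 counts per library.

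Kl, the klotho membrane protein (chromosome 5), had 7.55, 6.48, 5.44, 8.55 and 8.33 CPM in the same 5 Ttr-poor mice. In the Ttr-rich libraries the lowest level was 12.2, the median 38.7 and the highest 65.3 CPM. The sets again did not overlap, with a log2 difference of 1.85 (standard error 0.35). Clic6, an intracellular chloride channel protein (chromosome 16), had 5.19, 5.47, 1.67, 3.60 and 7.80 CPM in those mice. Its Ttr-rich libraries ran from 8.66 through a median of 21.8 to 36.6 CPM, without overlap, a log2 difference of 1.94 (standard error 0.34). Without mouse 41 the log2 differences were 3.27 for Folr1, 1.83 for Kl and 1.80 for Clic6.

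**Figure D1:**
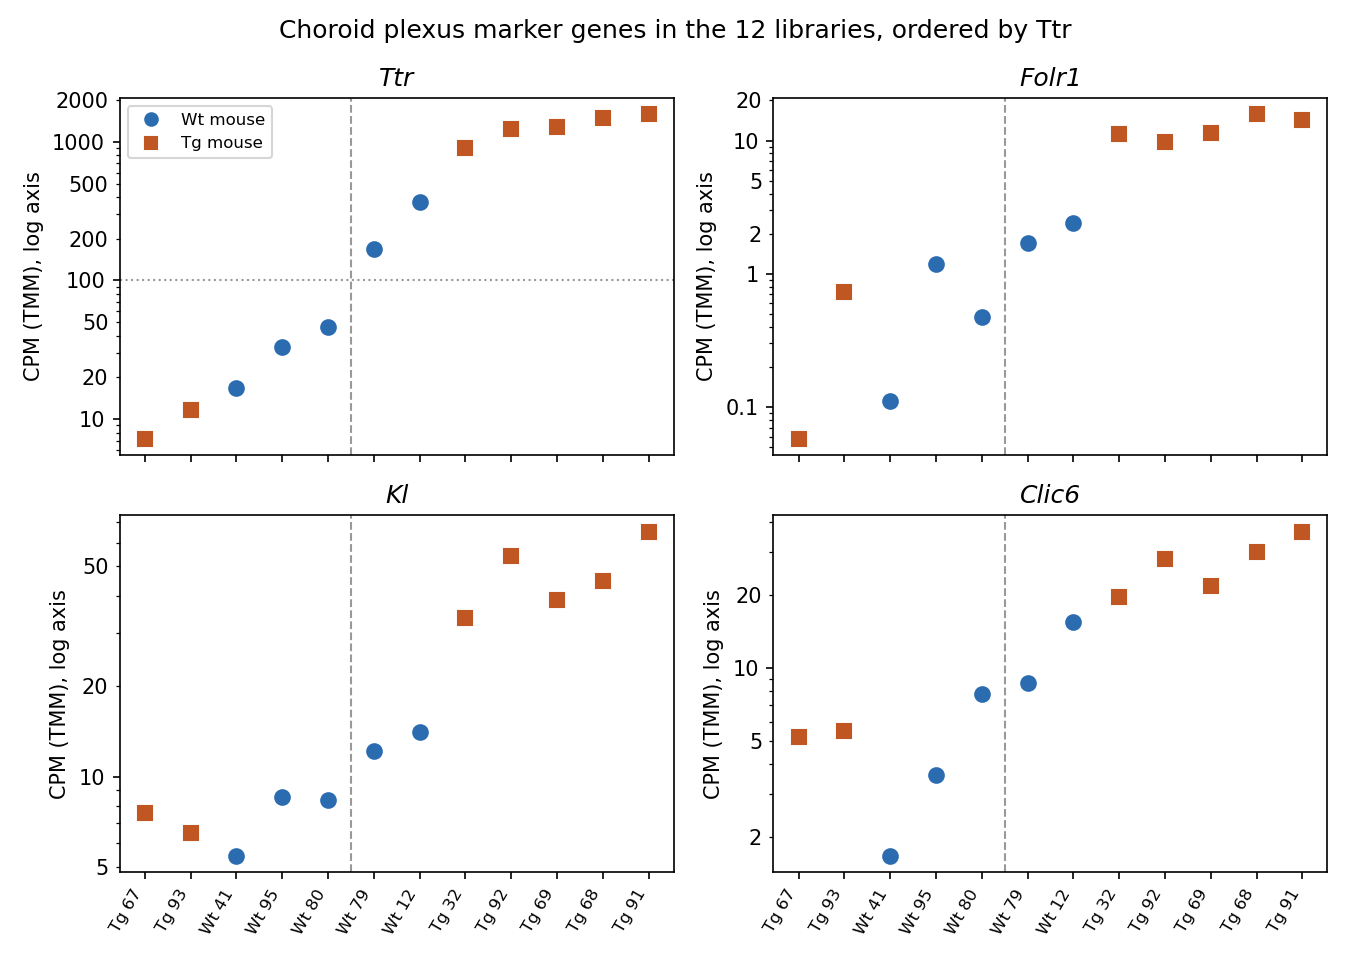
CPM of Ttr, Folr1, Kl and Clic6 on log axes in each of the 12 libraries, ordered by Ttr, with circles for Wt and squares for Tg mice. The dashed line parts the 5 Ttr-poor from the 7 Ttr-rich libraries and the dotted line marks 100 CPM of Ttr; for each gene every library to the right lies above every library to the left.

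Relative to Ttr, the markers did not keep 1 proportion. Kl was between 2.99% and 7.27% of the Ttr CPM in the Ttr-rich libraries but between 18.2% and 104.8% in the Ttr-poor ones. Clic6 was between 1.71% and 5.16% of Ttr in the Ttr-rich and between 9.87% and 72.0% in the Ttr-poor libraries. Folr1 stayed between 0.645% and 1.26% of Ttr in the Ttr-rich libraries and ranged from 0.658% to 6.19% in the Ttr-poor libraries, which overlapped. Ttr thus had a wider range over the sections than Kl or Clic6.

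The labels were unevenly spread over the split. Ttr-rich libraries were 5 of the 7 Tg and 2 of the 5 Wt mice, 5 of the 7 females and 2 of the 5 mice labelled male, and 4 of the 8 libraries of batch 1 and 3 of the 4 libraries of batch 2. Mean log2 CPM of Ttr was 1.39 higher in females than in mice labelled male (exact permutation test, two-sided p = 0.452) and 1.59 higher in batch 2 than in batch 1 (exact permutation test, two-sided p = 0.404). Adjusted over these 2 comparisons both p were 0.452. Without mouse 41 the differences were 0.76 and 1.20.

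Of 49 genes listed as made by the choroid plexus epithelium, 40 could be named, and all 40 had a log2 difference above 0 between Ttr-rich and Ttr-poor sections. Over all 15928 genes 48.5% had one, and over the 1349 named genes 48.1%. For 18 of the 40 genes all 7 Ttr-rich libraries lay above all 5 Ttr-poor libraries, a pattern shown by 109 genes or 0.684% of all genes, and 17 of these also had a log2 difference of at least 1, against 46 genes or 0.289% of all genes. Among the 1349 named genes, which include these 40, 54 had the pattern and 37 also had the log2 difference of at least 1. The list median was 1.54, beside -0.01 for all genes. These shares come from the same contrast that made the split and nothing is read from them. Without Ttr itself the median was 1.44, and without mouse 41 it was also 1.44.

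Transporters and channels that move ions and water across the epithelium held some of the widest differences. Slc4a5, a sodium bicarbonate cotransporter of the apical membrane (plus strand of chromosome 6, from 83219828 to 83304945), had 0.058, 0, 0.056, 0.45 and 0.24 CPM in Ttr-poor mice 67, 93, 41, 95 and 80, which is at most 8 counts per library. In the Ttr-rich libraries it ran from 1.83 through a median of 11.0 to 14.4 CPM, a log2 difference of 5.03 (standard error 0.65). Kcne2, a regulatory subunit of potassium channels, had 0, 0.11, 0, 0.056 and 0.35 CPM in the same Ttr-poor mice. Its Ttr-rich libraries ran from 0.60 to 7.31 CPM with a median of 3.34, a log2 difference of 4.52 (standard error 0.75). Ttr-poor libraries held few reads of the genes with the widest differences. Besides Slc4a5 and Kcne2, they had from 0 to 12 counts of Mfrp, from 1 to 8 of Cldn2, from 0 to 11 of Tmem72, from 0 to 7 of Calml4, from 4 to 8 of Aqp1 and from 1 to 16 of Kcnj13. The size of these log2 differences, given here and further on, thus rests on a handful of reads.

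Kcnj13, an inward rectifier potassium channel, had at most 0.95 CPM in Ttr-poor and at least 2.70 CPM in Ttr-rich libraries, a log2 difference of 4.27. Aqp1, the water channel of the apical membrane, had at most 0.44 and at least 1.42 CPM, a difference of 3.42. Slc2a12, a glucose transporter, did not overlap either, with a smaller log2 difference of 1.41. Other transport genes overlapped between the sets, among them Trpv4 with a log2 difference of 1.87. Slc12a2, the sodium, potassium and chloride cotransporter, ran from 34.0 to 57.8 CPM in the Ttr-poor and from 35.9 to 100.1 CPM in the Ttr-rich set, a log2 difference of 0.55. Trpm3, a cation channel, and Slc29a4, a monoamine transporter, had log2 differences of 0.30 and 0.38 and overlapped as well. The 14 named transport genes had a median log2 difference of 1.53, and 6 of them did not overlap.

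Secreted products other than Ttr followed a narrower range. Enpp2, the secreted enzyme autotaxin, had 73.7, 65.9, 76.9, 85.9 and 131 CPM in Ttr-poor mice 67, 93, 41, 95 and 80, and a lowest level of 141, a median of 403 and a highest of 556 CPM in Ttr-rich libraries. The sets did not overlap, and the log2 difference was 1.72 (standard error 0.37). Sostdc1, a secreted antagonist of BMP and Wnt signals, had a log2 difference of 1.63 without overlap. Igf2, a growth factor, had a log2 difference of 1.44, but Wt mouse 79 with 14.2 CPM fell among the Ttr-poor libraries, which ran from 9.23 to 19.3 CPM. Of 6 named secreted products other than Ttr 2 did not overlap, and their median was 1.54.

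Among receptors and surface enzymes, Mfrp, a membrane protein with a frizzled-like domain, had the widest log2 difference, 4.56 (standard error 0.54). It had at most 0.67 CPM in Ttr-poor libraries and from 1.51 to 13.4 CPM in Ttr-rich libraries. Ace, the angiotensin converting enzyme, ran from 20.3 to 29.3 CPM in the Ttr-poor and from 32.3 to 70.6 CPM in the Ttr-rich set. It did not overlap, although its log2 difference was only 0.98 (standard error 0.12). Prlr, the prolactin receptor, had a log2 difference of 1.05, with Wt mice 12 and 79 inside the Ttr-poor range of 1.44 to 6.86 CPM. Lepr, the leptin receptor, and Crhr2, a receptor of the corticotropin-releasing hormone family, had log2 differences of 0.14 and 0.08 with overlap. The 7 named genes of this group had a median of 1.05, and 4 did not overlap.

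Genes of the epithelial junctions and structure had differences of much the same range. Cldn2, the pore-forming tight junction claudin of this epithelium (chromosome X), had 0.058, 0.28, 0.056, 0.056 and 0.47 CPM in Ttr-poor mice 67, 93, 41, 95 and 80. It ran from 1.01 through 5.83 to 8.12 CPM in Ttr-rich libraries, a log2 difference of 4.30 (standard error 0.54) without overlap. Cldn1, another claudin, overlapped, with a log2 difference of 0.73. The membrane protein Tmem72, the calmodulin-like Calml4 and coagulation factor F5 had log2 differences of 3.78, 3.02 and 2.32 without overlap. Krt8 and Krt18, the paired keratins of simple epithelia, had log2 differences of 1.26 and 1.67, and for both genes Wt mice 12 and 79 lay within the Ttr-poor range. The 10 named genes had a median of 1.47, and 4 did not overlap.

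The listed transcription factors were Otx2 and Msx1, since Lmx1a could not be named. Otx2, a homeodomain factor of the choroid plexus and its precursors (minus strand of chromosome 14, from 48657677 to 48673819), had 0.17, 0.73, 0.11, 0.84 and 1.18 CPM in Ttr-poor mice 67, 93, 41, 95 and 80. In the Ttr-rich libraries it ran from 1.28 through 4.70 to 7.03 CPM without overlap, a log2 difference of 2.44 (standard error 0.56). Msx1, another homeodomain factor, had a log2 difference of 1.02, and Wt mice 12 and 79 lay within its Ttr-poor range.

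OTX2 is known to bind the letters TAATCC. These were searched on both strands in the 250 bases before each gene start of RefSeq (GRCm38.p6), and 32 of the 40 named choroid plexus genes had at least 1 of 46 promoters there. The letters were found in 5 of the 46 promoters (10.9%), beside 6.25% of all 32851 promoters. The 5 stretches are shown because they carry the letters in genes that ran with Ttr, with the match in capitals, written 5′ to 3′ on the strand of the gene, where GGATTA is the same match on the opposite strand. They lie at chr3:95904714-95904773 (Car14, minus strand), chr3:122044375-122044434 (Abca4, plus strand), chr9:44101609-44101668 (Mfrp, plus strand), chr11:105967894-105967947 (Ace, plus strand) and chr14:48665288-48665347 (Otx2, minus strand). The Otx2 stretch lies before a RefSeq start inside the span of the gene, not before its upstream end at 48673819. A match of letters is a description and not a binding site.
Car14: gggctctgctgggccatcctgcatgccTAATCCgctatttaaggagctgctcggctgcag
Abca4: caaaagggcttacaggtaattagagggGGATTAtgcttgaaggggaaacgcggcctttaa
Mfrp: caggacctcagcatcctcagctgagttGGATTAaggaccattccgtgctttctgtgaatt
Ace: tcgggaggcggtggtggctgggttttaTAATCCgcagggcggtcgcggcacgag
Otx2: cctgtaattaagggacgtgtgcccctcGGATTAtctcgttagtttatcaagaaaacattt

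Of these 5 genes, Mfrp, Ace and Otx2 did not overlap between the sets. Car14, a membrane carbonic anhydrase, and Abca4, a retinoid transporter, had log2 differences of 1.65 and 0.998 and overlapped. In both, Wt mouse 79 was the lowest Ttr-rich library, with 4.08 CPM for Car14 and 3.34 CPM for Abca4, below the 4.73 and 4.79 CPM of Ttr-poor Tg mouse 67.

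**Figure D2:**
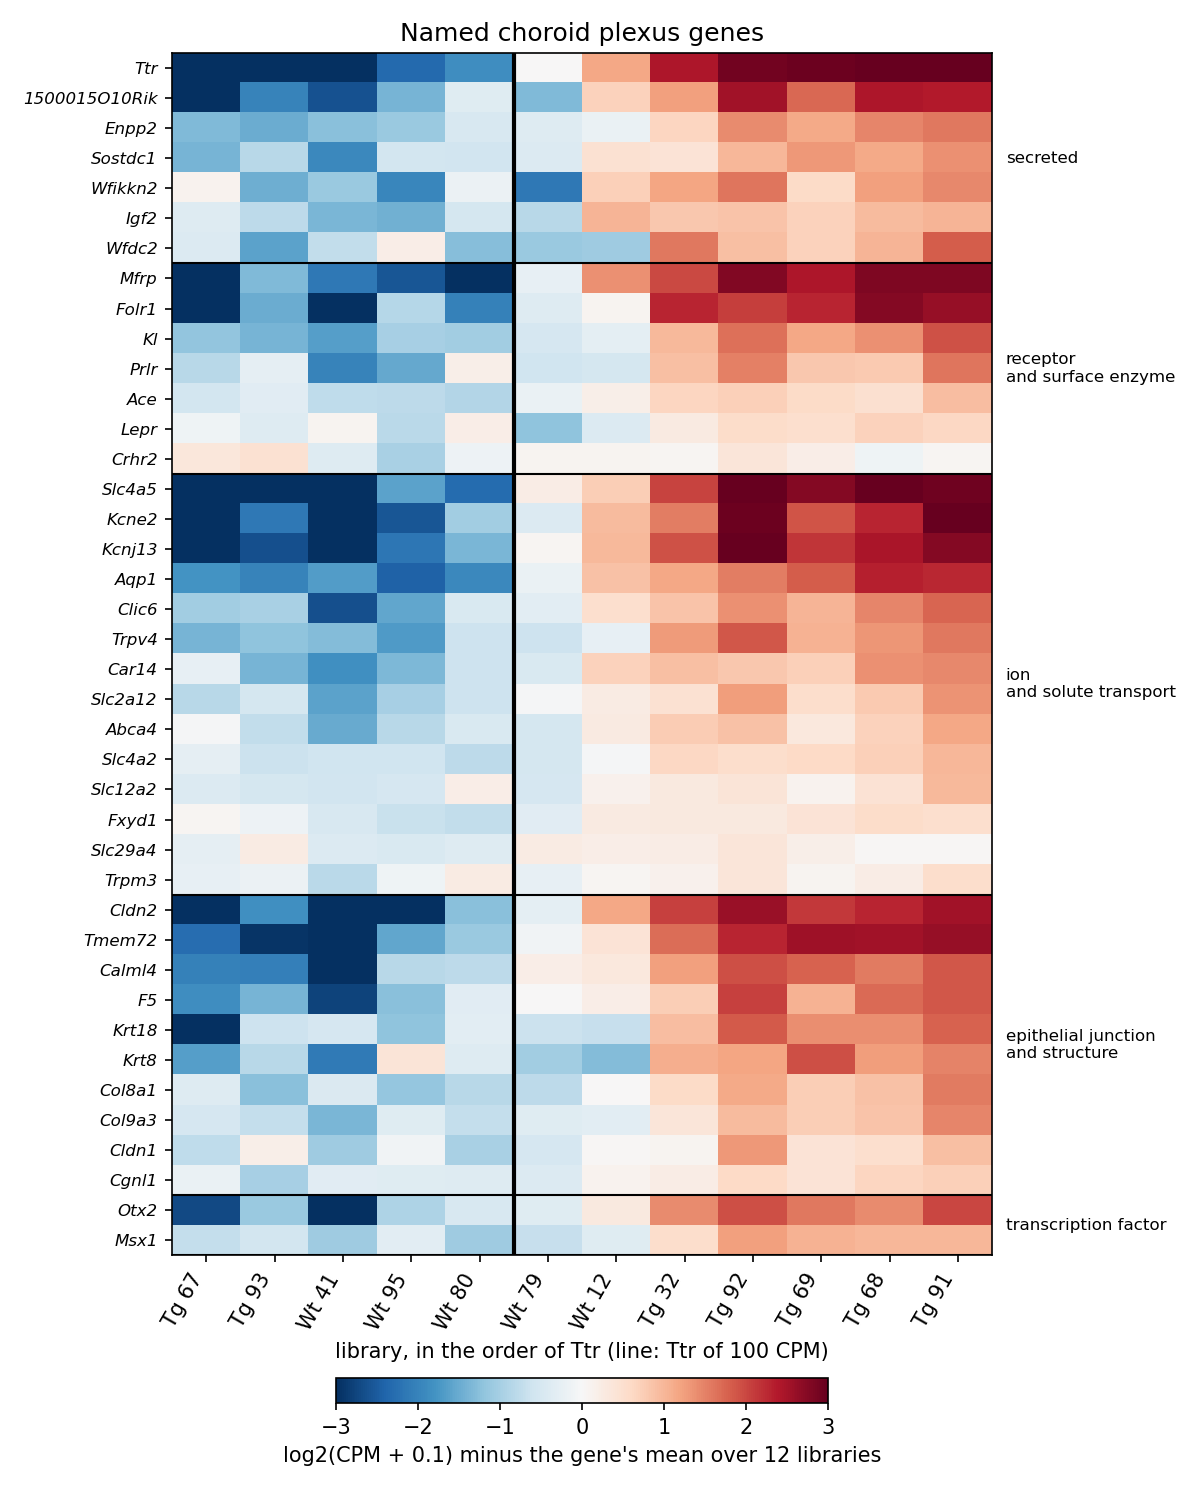
The 40 named choroid plexus genes (lines) in the 12 libraries (columns, in the order of Ttr), coloured by log2(CPM + 0.1) minus the gene's mean over the libraries, with colours saturated at the ends of the scale. The black vertical line marks 100 CPM of Ttr; the 5 Tg libraries on the right are red for nearly all genes, whereas Wt mice 79 and 12 next to the line are pale.

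The Ttr-rich set was not uniform. In 34 of the 40 named choroid plexus genes both Ttr-rich Wt libraries lay below all 5 Ttr-rich Tg libraries, which was so for 862 genes or 5.41% of all genes. All 40 had a Tg against Wt log2 fold change above 0 and were named through a genotype comparison. This order is thus not independent of their naming. The 5 Ttr-rich Tg libraries lay above all Ttr-poor libraries in 35 of the 40 genes. The share of all genes with that order was not computed, so nothing is read from this count, which also depends on their naming. Of the 22 genes that overlapped, mouse 79 was the lowest Ttr-rich library in 18 and mouse 80 the highest Ttr-poor library in 7. Without mouse 79 the number of genes that did not overlap rose from 18 to 29 of 40, while the share over all genes rose from 0.684% to 1.91%. Without mouse 41 it was 18 of 40. Tg mouse 91 had the highest level in 20 of the 40 genes, Tg mouse 92 in 11 and Tg mouse 68 in 6, and Wt mouse 41 had the lowest level in 19.

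The summed level of the 39 choroid plexus genes other than Ttr gave the same order of sets. It was 323, 308, 259, 305 and 408 CPM in Ttr-poor mice 67, 93, 41, 95 and 80. It was 411 CPM in mouse 79, 572 in mouse 12 and between 827 and 1351 in the 5 Ttr-rich Tg mice. Mice 79 and 80, which differed 3.66-fold in Ttr, thus nearly coincided in this sum. Abundant genes weigh most in it. In mice 80 and 79 Enpp2 had 131 and 141 CPM, Trpm3 69.6 and 49.4 and Slc12a2 57.8 and 35.9. Some genes of low level still differed, with 0.47 and 1.70 CPM for Folr1 and 0.059 and 1.51 CPM for Mfrp. Of the 40 genes, 12 were lower in mouse 79 than in mouse 80.

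Within each genotype the sets were also compared, since both held Ttr-rich and Ttr-poor libraries. In Tg mice 37 of the 40 genes did not overlap between 5 Ttr-rich and 2 Ttr-poor libraries, beside 6.59% of all genes, and the median difference of mean log2 CPM was 2.16. In Wt mice 23 of the 40 genes did not overlap between 2 and 3 libraries, beside 9.35% of all genes, and the median difference was 0.80. Without mouse 41 these were 24 of the 40, beside 22.1% of all genes, and a median of 0.64. The difference was wider in Tg than in Wt mice for 37 of the 40 genes, a count without a share over all genes beside it. Ttr, which made the split, was itself 168 and 371 CPM in Ttr-rich Wt libraries but 898 to 1581 CPM in Ttr-rich Tg libraries. Whether the 2 genotypes differ in this difference was not tested, because the split was made on the same libraries.

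Some libraries shared genotype, sex and batch and still fell on either side of 100 CPM. Among Tg females of batch 1, Ttr-poor mouse 93 lay below Ttr-rich mice 32, 91 and 92 in 37 of the 40 choroid plexus genes, beside 24.1% of all genes. Among Wt females of batch 2, Ttr-poor mouse 80 lay below Ttr-rich mouse 79 in 28 of the 40 genes, beside 50.9% of all genes. In batch 1 alone, 31 of the 40 genes did not overlap between 4 Ttr-rich and 4 Ttr-poor libraries, beside 4.02% of all genes.

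Genes of oligodendrocytes, the cells that make myelin, ran with Ttr in the same sections. All 16 named genes of 18 listed had a log2 difference above 0, beside 48.5% of all genes, with a median of 1.20. All 16 also had an unadjusted p under 0.05 between Tg and Wt mice (edgeR). For 5 of the 16 all Ttr-rich libraries lay above all Ttr-poor libraries, beside 0.684% of all genes, among them Mog, Mal, Cldn11 and Klk6. Mbp, the myelin basic protein, had 1064, 680, 565, 741 and 690 CPM in Ttr-poor mice 67, 93, 41, 95 and 80, and from 959 through 1882 to 2999 CPM in Ttr-rich libraries. Its sets overlapped by mouse 79 alone, which lay below mouse 67, and the log2 difference was 1.24 (standard error 0.21). Mog, a glycoprotein of the outer myelin surface, ran from 15.5 to 20.3 CPM in the Ttr-poor and from 28.5 to 82.5 CPM in the Ttr-rich set, a log2 difference of 1.29. Klk6, a secreted protease of oligodendrocytes, had at most 0.86 CPM in Ttr-poor and at least 1.79 CPM in Ttr-rich libraries, a log2 difference of 3.43. Its Ttr-poor levels rest on few reads.

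The summed level of the 16 oligodendrocyte genes ran from 1146 to 2079 CPM in Ttr-poor and from 2103 to 6359 CPM in Ttr-rich libraries, with Tg mouse 67 and Wt mouse 79 nearly equal at the border. None of the 16 genes was at 0 in any library. Without mouse 79, 13 of the 16 genes did not overlap, beside 1.91% of all genes, without mouse 67 also 13, beside 1.46%, and without mouse 41 again 5, beside 0.873%. Both Ttr-rich Wt libraries lay below all Ttr-rich Tg libraries in 5 of the 16, beside 34 of the 40 choroid plexus genes and 5.41% of all genes. In the summed level Wt mouse 12, with 3796 CPM, lay above Tg mouse 92, with 3556. The part that the amount of white matter in a section has in the differences between Ttr-rich and Ttr-poor sections was not tested.

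**Figure D3:**
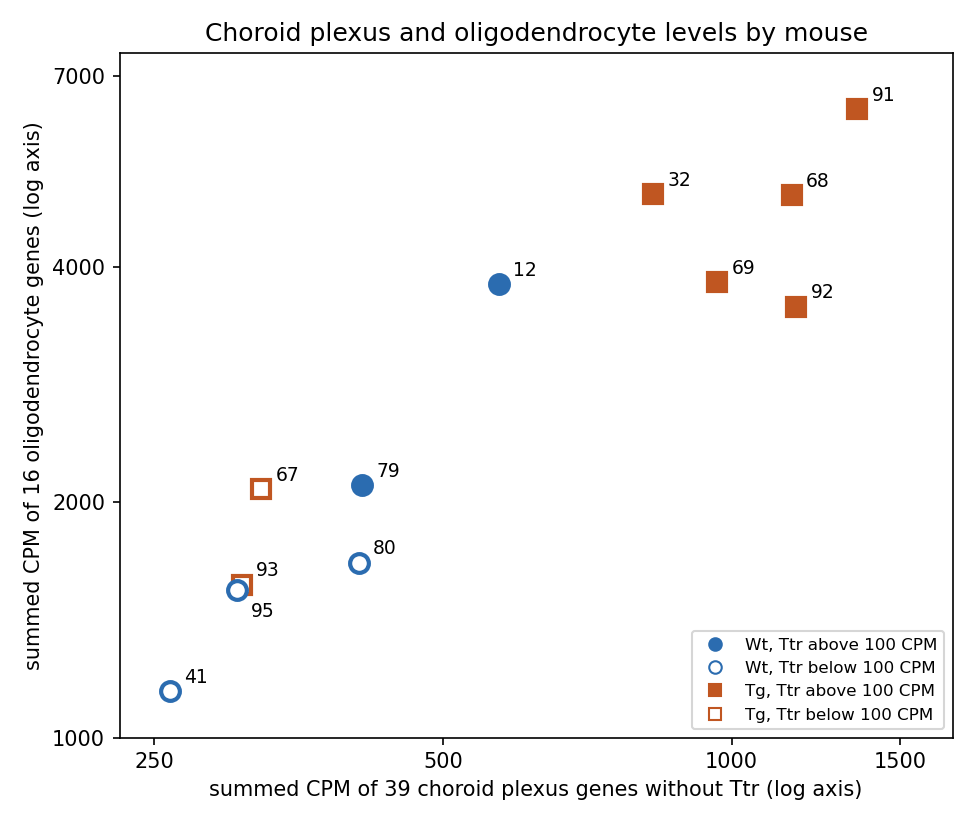
Summed CPM of the 39 named choroid plexus genes without Ttr against the summed CPM of the 16 named oligodendrocyte genes, on log axes, 1 point per mouse with its number. Abundant genes such as Enpp2 weigh most in the horizontal sum. Open symbols are Ttr-poor and filled symbols Ttr-rich libraries; the 5 Ttr-rich Tg mice lie at the upper right, from 827 CPM on the horizontal and 3556 CPM on the vertical axis.

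Other cell types at the ventricle and the brain surface showed smaller differences. Ependymal cells, which line the ventricles and bear motile cilia, were represented by 13 named genes of 20 listed, with a median log2 difference of 0.39 and 10 above 0. Only Drc7, a subunit of the ciliary dynein regulatory complex, did not overlap, with at most 1.83 CPM in the Ttr-poor and at least 2.47 CPM in the Ttr-rich set, a log2 difference of 1.84. Foxj1, the transcription factor of motile cilia, had a log2 difference of 0.83 and overlapped. Fibroblasts of the meninges and vessels were represented by 10 named genes of 16 listed. All 10 had a difference above 0 with a median of 0.65, and none of them stood without overlap. The widest was Pcolce, an enhancer of procollagen processing, with 1.44.

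Genes of the thalamus and other diencephalon were uneven. Prkcd, a protein kinase C of thalamic relay neurons, had 9.74, 9.94, 7.66, 7.32 and 13.4 CPM in Ttr-poor mice 67, 93, 41, 95 and 80. In the Ttr-rich set it had 27.1 and 11.8 CPM in Wt mice 12 and 79 and 60.2, 65.5 and 124.8 CPM in Tg mice 32, 68 and 91 but only 8.63 and 9.44 CPM in Tg mice 92 and 69. The 3 mice with the most Prkcd were also the 3 with the highest summed oligodendrocyte level, whereas mice 92 and 69 were high in choroid plexus genes without it. Zic1 and Zic4, zinc finger factors of midline brain structures, had log2 differences of 1.44 and 1.41, and Slc17a6, the glutamate transporter of thalamic neurons, had -0.04. All 4 overlapped, and Zic1 and Zic4 are neighbours whose reads can only be told apart by strand where they overlap. The part of thalamic tissue in the split was not tested.

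Other lists for cell types of the hippocampus and cortex had small median differences, while single genes differed more. Prox1, the only named gene of 7 listed for hippocampal fields, had a log2 difference of 0.42 and overlapped. Astrocyte genes had a median log2 difference of 0.10 over 5 named genes of 8 listed, with 0.10 for Gfap, the astrocyte filament protein. They ranged from -0.16 to 0.63. Genes of microglia had a median of 0.10 over 6 of 11 listed. Genes of endothelium and mural cells had 0.07 over 5 of 10 listed, with a highest value of 0.50. Excitatory neurons of the forebrain were represented by 7 of 11 listed genes, all with a difference below 0 and a median of -0.21. Among these Grin2b, a subunit of the NMDA receptor, was the 1 without overlap, from 707.7 to 1009 CPM in the Ttr-poor and from 517 to 689.5 CPM in the Ttr-rich set, a log2 difference of -0.38 (standard error 0.11). The 2 named interneuron genes of 7 listed and the 4 named immediate early genes of 12 had medians of 0.00 and -0.08.

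**Figure D4:**
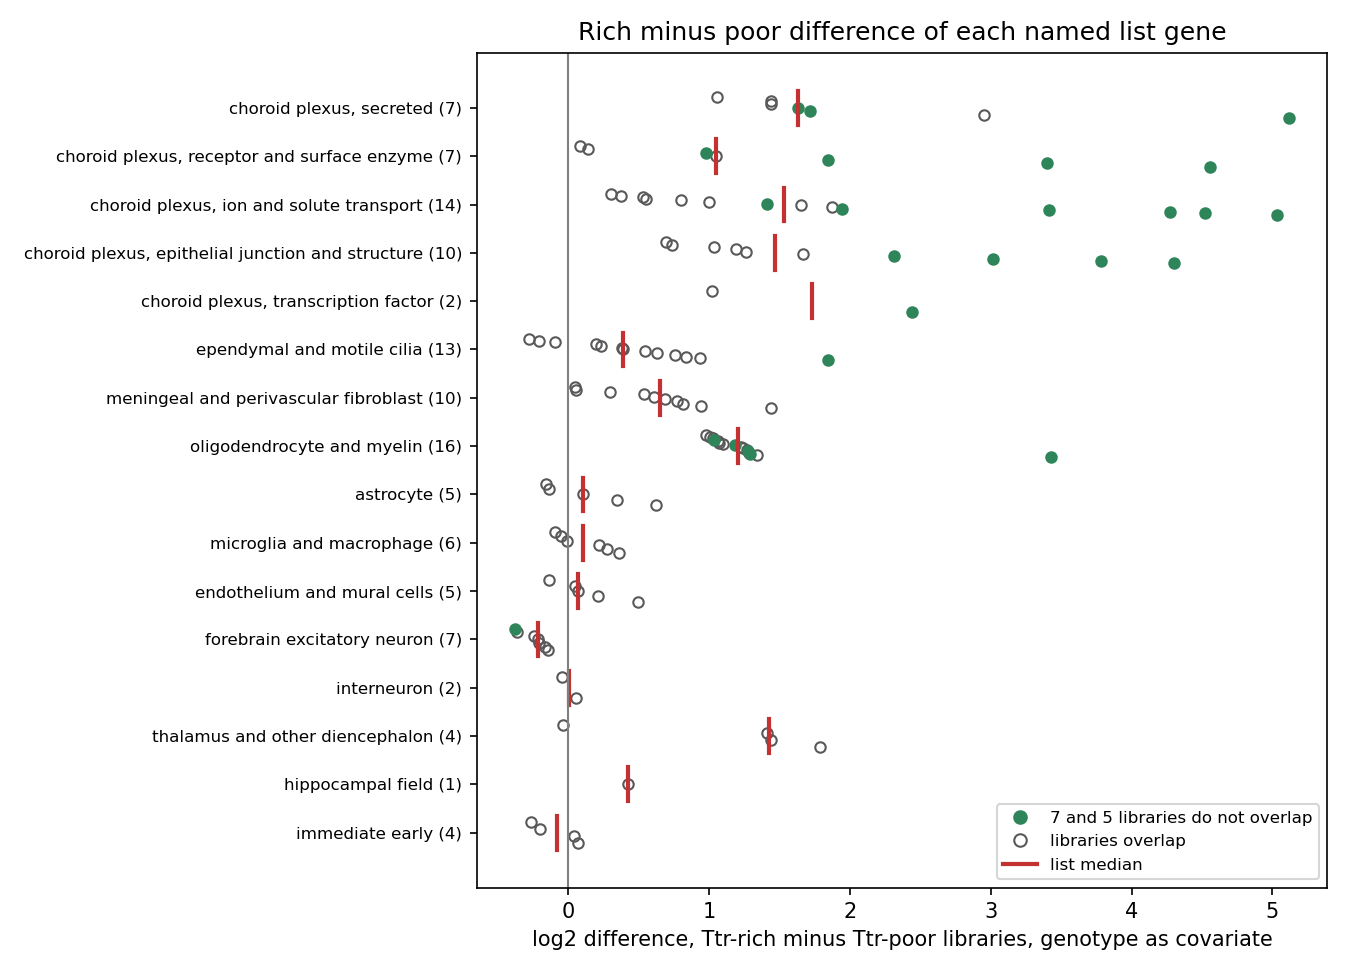
Log2 difference between Ttr-rich and Ttr-poor libraries, with genotype as covariate, for every named gene of the 16 lists (number of named genes in brackets). Filled points are genes whose 7 and 5 libraries do not overlap and red bars are list medians, which are 1.05 or more for the 5 choroid plexus lists, 1.20 for oligodendrocytes, 1.43 for the diencephalon and at most 0.65 for the other lists.

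Among the 37 named genes that had a log2 difference of at least 1 without overlap, 17 were on a choroid plexus list, 5 on the oligodendrocyte list and 1 on the cilia list, and the other 14 were on no list. A further 9 genes with the same pattern had no name. The widest of the 14 was Cox8b, a subunit of cytochrome oxidase, with at most 0.41 CPM in the Ttr-poor and at least 0.74 CPM in the Ttr-rich set, a log2 difference of 2.88. At such levels a library holds few reads of a gene, so the size of that difference is uncertain. Slc39a4, a zinc importer, had a log2 difference of 2.69 and Wdr86 one of 2.49. Rdh5, a retinol dehydrogenase, followed with 1.505, and Angptl2, a secreted angiopoietin-like protein, with 1.44. Sspo, the giant glycoprotein of the subcommissural organ, had at most 0.78 CPM and at least 0.93 CPM in the 2 sets, a difference of 1.42. These levels near the border also rest on few reads. Bdh2, Elovl7, a fatty acid elongase, Ngfr, the low-affinity neurotrophin receptor, Slc25a13, a mitochondrial carrier, Cox6b2, Svep1, Sec14l5 and Arsg, an arylsulfatase, lay between 1.07 and 1.41. A single gene, without a name, was lower by at least 1 without overlap (0.00628% of all genes).

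The comparison of Tg with Wt mice, which was the question of the study, was then set beside the split. Ttr in Wt mice was 16.9, 33.0, 45.8, 168 and 371 CPM, and in Tg mice it ran from 7.21 through a median of 1238 to 1581 CPM. Tg mice thus held both the 2 lowest and the 5 highest levels, and the genotypes overlapped. The mean log2 CPM of Ttr was higher by 2.17 in Tg than in Wt mice (two-sided exact permutation p = 0.226). That of Folr1 was 2.27 higher (exact permutation p = 0.101), that of Kl 1.53 higher (exact permutation p = 0.0492) and that of Clic6 1.52 higher (exact permutation p = 0.0543). These 4 p are not adjusted. The 4 genes were named through the study's own genotype comparison and chosen with results known. Their p are thus not independent evidence of a difference. Adjusted over all genes by edgeR, the p of the 4 genes lay between 0.597 and 0.637, so none passed. Leaving out any mouse other than Tg mice 67 and 93 took the exact permutation p of Kl above 0.05. Without mouse 41 the differences were 1.66 for Ttr (exact permutation p = 0.361), 1.75 for Folr1 (exact permutation p = 0.239), 1.35 for Kl (exact permutation p = 0.0818) and 1.09 for Clic6 (exact permutation p = 0.136).

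Over all genes, App was called higher in Tg mice at an adjusted p under 0.1, which is 0.00628% of the genes tested, and 0 genes were called lower (edgeR, quasi-likelihood F-test, covariates sex and batch). An unadjusted p under 0.05 was found for 1146 genes, or 7.19%. DESeq2 called 56 genes in both directions, or 0.352%, and 8 of them were named choroid plexus genes (Prlr, Trpv4, Slc4a2, Msx1, Col9a3, Ace, Abca4 and Slc2a12). All 56 were among the 1349 named genes. Without mouse 41 DESeq2 called 21 genes, and 2 of them were named choroid plexus genes. With the Ttr group as a further covariate, edgeR called 2 genes higher (0.0126%) and 0 lower, App and Prnp, the prion protein gene, whose adjusted p went from 0.160 to 0.0237, and 787 genes, or 4.94%, had an unadjusted p under 0.05. Without mouse 41, whose Xist count went against its sex label, these numbers were 753 without and 563 with the Ttr group, and the adjusted p of Prnp was 0.889 and 0.0846. Whether reads of the transgene enter the counts of App and Prnp was not tested.

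The genotype difference of the choroid plexus genes was smaller with the Ttr group in the fit. For Ttr, whose own level defines the group, a shift toward 0 follows from the construction of the fit and shows nothing further. Its log2 fold change between Tg and Wt mice was 3.05 (adjusted p = 0.637, edgeR) and became 0.54 (adjusted p = 0.982, edgeR). That of Slc4a5 went from 3.22 to 1.42, that of Folr1 from 3.01 to 1.60, that of Tmem72 from 2.99 to 1.58 and that of Kcnj13 from 2.92 to 1.54. That of 1500015O10Rik, a secreted augurin, went from 2.46 to 1.18. Beside Ttr, these 5 genes moved most. The median over the 40 genes was 1.71 without the term and 0.91 with it, and 39 of the 40 came closer to 0, beside 75.3% of the named genes and 51.5% of all genes. Crhr2, the exception, went from 0.49 to 0.51. The 39 genes other than Ttr all had differences above 0 between the sets and between the genotypes. Ttr-rich libraries were 5 of the 7 Tg and 2 of the 5 Wt mice. A shift toward 0 is thus favoured for these genes too by how genes and group were chosen, and nothing is concluded from it. Without mouse 41 the median was 1.61 without and 0.86 with the term.

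With log2 Ttr CPM in place of the group the median was 0.49 and Ttr itself, then fitted by its own level, was at -0.01. In batch 1 alone, with sex as covariate, the median was 0.56 and the fold change of Ttr was -0.03. Without mouse 41 these medians were 0.44 and 0.55, and Ttr was at -0.01 and -0.08. In batch 1 mouse 12 was the only Wt female and mouse 67 the only Tg mouse labelled male. The batch 1 values thus rest on single mice. Ttr there was 16.9, 33.0 and 371 CPM in Wt mice 41, 95 and 12. In Tg mice 67, 93, 32, 92 and 91 it was 7.21, 11.7, 898, 1238 and 1581 CPM. Kl, Clic6 and Prlr were among the genes with more left, at 0.70, 0.79 and 1.23 with log2 Ttr as covariate. Since 5 of 7 Tg but 2 of 5 Wt sections were Ttr-rich, genotype and choroid plexus content cannot be fully told apart in these 12 mice.

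**Figure D5:**
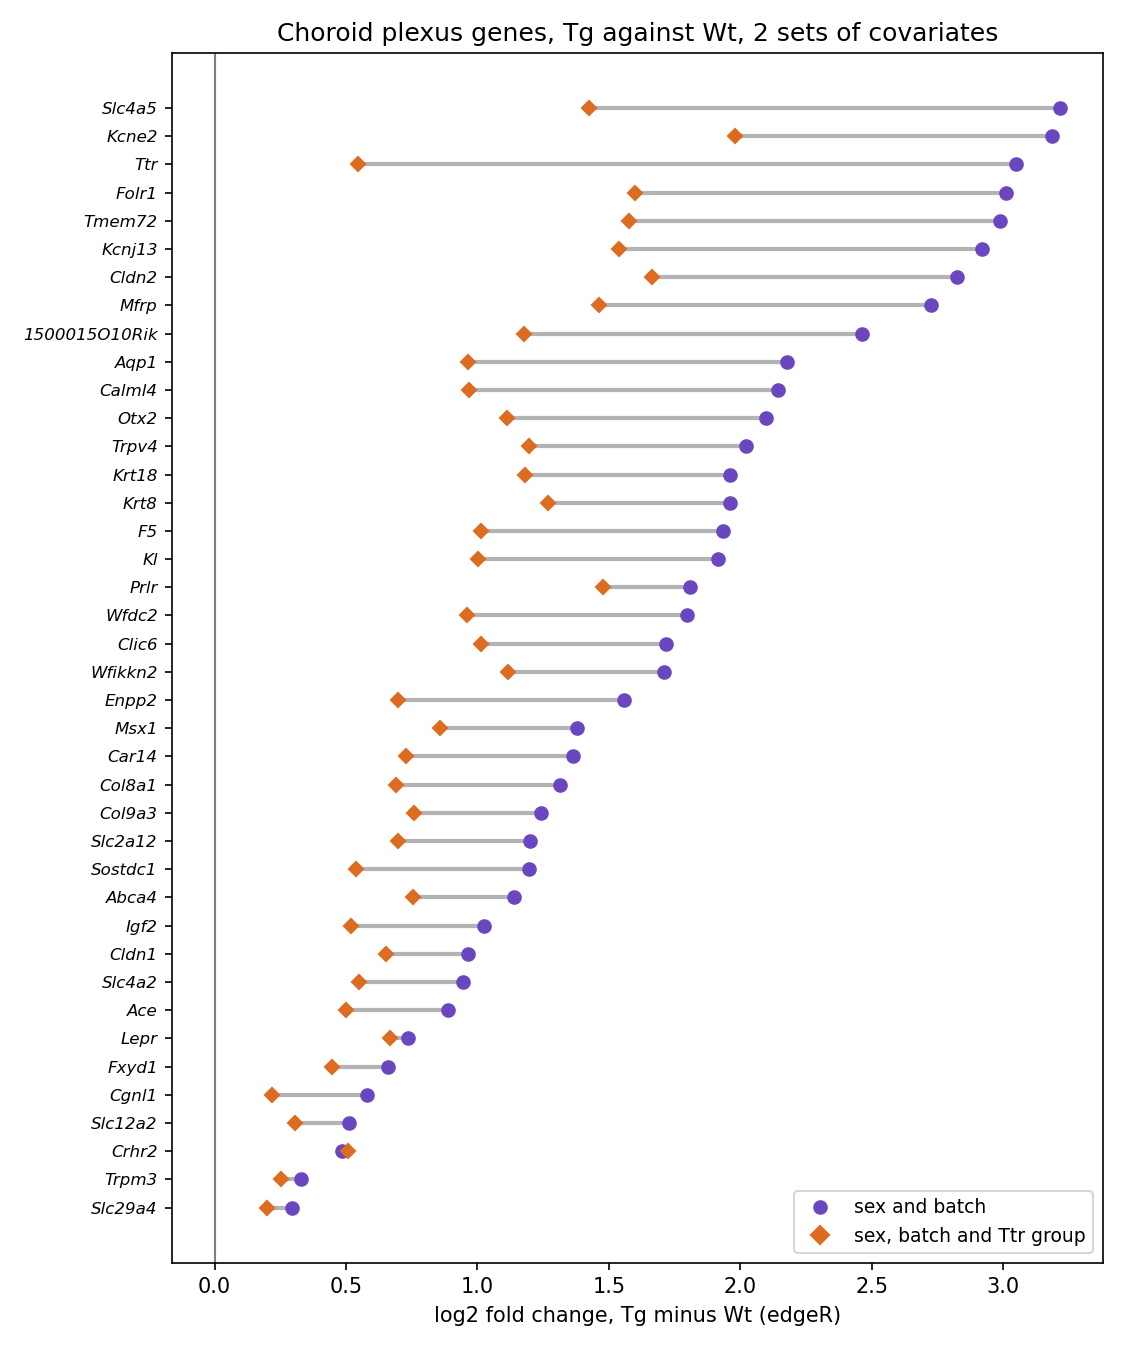
Log2 fold change between Tg and Wt mice of the 40 named choroid plexus genes from edgeR, with sex and batch as covariates (circles) and with the Ttr group added (diamonds). The diamonds lie closer to 0 for 39 genes, a shift that the choice of genes and group favours. The line of Ttr, from 3.05 to 0.54, is long by construction, since its level defines the group.

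The oligodendrocyte genes also had a smaller genotype difference in the fit with the Ttr group. Their median log2 fold change between Tg and Wt mice was 0.98 and became 0.52, and all 16 came closer to 0, beside 75.3% of the named genes. All 16 had differences above 0 between the sets and between the genotypes, so this shift is favoured as for the choroid plexus genes. Without mouse 41 the median was 0.87 and became 0.40. Gfap did not follow this pattern, with 1.01 without and 1.06 with the Ttr group (adjusted p = 0.574 and 0.838, edgeR). Without mouse 41 Gfap had 0.78 and 0.84. App was 1.67 and 1.71, and the 6 microglial genes had medians of 0.43 and 0.40.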

How the data were processed

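The authors aligned the reads to mm10 (STAR and Bowtie2 are named in the submitters' processing notes), counted unique reads per gene, dropped weakly expressed genes, and the raw counts of 15928 genes in 12 mice were deposited without normalization. A second deposited table holds library sizes, batches and the authors' normalization factors, a ratio between libraries, which equal the TMM factors computed here. Strand-specific counting is not stated in the sources used here.

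Genes were named by solving 12 size factors so that mean normalized counts met the means of the study's result table within a relative difference of 1e-09; 1349 of 1684 names were paired, 335 were not, and 0 were paired when the means were shifted in 10 trials. Fold changes and p-values in that table were not used. The members and gene lists were chosen with earlier results of these data known.

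edgeR 4.0.16 (R 4.3.3) was fitted to all genes, with genotype and Ttr group for the log2 difference. Its standard error is approximate, the absolute log2 difference divided by the square root of the F statistic of that fit. Tg against Wt was fitted with sex, batch and genotype (quasi-likelihood F-test, Benjamini-Hochberg adjusted p under 0.1). These covariates and this threshold are in the study's supplementary methods, but the study itself tested with DESeq2. filterByExpr removed 0 genes. The biological coefficient of variation of the Tg against Wt fit was 0.201. DESeq2 1.42.0 served as alternative. For single values, the difference of mean log2 CPM was tested by exact permutation (prior count 2, 792 splits of the 12 mice, 495 for batch); a planned adjustment over the 4 marker genes is not given because those genes were chosen with results known. Of the edgeR and DESeq2 fits, only the edgeR fit of Tg against Wt with sex and batch was tested on simulated data, with 200 genes changed. Depth was 15768135 to 20996174 counts per mouse. Replicates are separate mice. Named genes were App, Xist, the 4 markers, all named choroid plexus genes, up to 4 of each other list with the highest mean, the widest of the other genes called, and the 6 choroid plexus genes moved most by the Ttr group; others singled out (mainly Klk6, Drc7, Foxj1, Prnp, and further list genes without overlap) were chosen after their values were seen. The counts without overlap with libraries left out or within a genotype or batch, and the Tg against Wt alternatives without mouse 41, were also added after the data were seen. The promoter search used RefSeq promoters of GRCm38.p6, and gene positions are from GENCODE on GRCm38. A single-gene result of the oligodendrocyte list is not reported here.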

Additional observations from a re-analysis of the deposited data

Results flagged for a closer look

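In 40 choroid plexus genes, log2 CPM was examined for a single library far from the rest of its set, in Ttr-rich, Ttr-poor, Wt and Tg libraries. Of these 160 groups 8 had such a library, where chance gives about 1 in 20. Wt mouse 79 was far below the other Ttr-rich libraries in 4 genes: Igf2 (14.2 CPM), Wfikkn2, a protease inhibitor domain protein (0.138 CPM), Car14 (4.08 CPM) and Fxyd1, a regulator of the sodium pump (10.9 CPM). Wt mouse 80 was far above the other Ttr-poor libraries in Slc12a2 (57.8 CPM). Tg mouse 93 was far above them in Slc29a4 (19.4 CPM) and far below them in Cgnl1, a tight junction protein (3.52 CPM). In Wt mice, mouse 12 stood above the others in Cgnl1 (7.64 CPM).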

How the results depend on the processing

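Of 421 alternative values for 24 results, 361 kept their direction and their side of the threshold or stayed within the spread given for them. The log2 differences of Ttr, Folr1, Kl and Clic6 between Ttr-rich and Ttr-poor libraries did so under every alternative run, from 4.15 to 6.08 for Ttr with a mouse left out.

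The 46 genes called higher became 23 with a mean of at least 5 CPM (fewer genes tested) and 184 in batch 1 alone (fewer samples), and 45 to 121 with a library left out (90 without mouse 67, 121 without mouse 79, 72 without mouse 80). The 1 gene called lower became 0 with that filter, 2 with overlap judged within genotypes, 13 in batch 1 alone and 0 to 3 with a library left out (0 without mouse 12, 3 without mouse 67, 2 without mouse 68). Choroid plexus genes without overlap, 18 in all libraries, were 31 in batch 1, 37 in Tg mice and 18 to 29 with a library left out (29 without mouse 79). The 5 oligodendrocyte genes without overlap became 15 in batch 1, 14 in Wt, 15 in Tg mice and 5 to 13 with a library left out (13 without mouse 67 or 79). Over all genes the share without overlap was 0.684% in all libraries, 4.02% in batch 1, 9.35% in Wt, 6.59% in Tg mice and between 0.716% and 1.91% with a library left out.

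Between Tg and Wt mice, the 1 gene called higher by edgeR became 51 with DESeq2, 2 with the Ttr group, 2 with log2 Ttr, 0 in batch 1 alone and 1 to 2 with a mouse left out (2 without mouse 93), and 0 genes called lower became 5 with DESeq2. The 1146 genes with an unadjusted p under 0.05 became 577 with log2 Ttr, 487 in batch 1 alone and 753 to 1586 with a mouse left out (753 without mouse 41). Ttr reversed to -0.0055 with log2 Ttr as covariate, by construction, and to -0.029 in batch 1 alone. The batch 1 fit had sex as covariate, with mouse 12 the only Wt female and mouse 67 the only Tg mouse labelled male. The choroid plexus median of 1.71 became 0.91 with the Ttr group, 0.49 with log2 Ttr and 0.56 in batch 1 alone. With mouse 41 left out as well, the genes called higher were 18 with DESeq2, 2 with the Ttr group, 2 with log2 Ttr and 0 in batch 1, 3 were called lower with DESeq2, Ttr was -0.012 with log2 Ttr and -0.079 in batch 1, and the median was 0.86, 0.44 and 0.55. In the exact permutation tests, the difference in Folr1 ran from 1.75 to 3.07 with a mouse left out (exact p = 0.0108 without mouse 67), Kl from 1.32 to 1.87 (p above 0.05 in 10 of 12 cases) and Clic6 from 1.09 to 1.87 (exact p = 0.0364 without mouse 12 and 0.0281 without mouse 67 or 93). These exact p are not adjusted and belong to genes chosen with results known. Unless a cause is named, the cause was not tested. No paired analysis was possible because the labels give each mouse its own number and Wt and Tg mice share none.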

Other observations

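In the other direction, 45 genes (0.283%) had all 7 Ttr-rich libraries below all 5 Ttr-poor libraries, and 14 of them were named. They were singled out after their values were seen, and their differences were small. Chgb, a granin of secretory vesicles, had 56.3, 55.3, 74.8, 69.7 and 53.6 CPM in Ttr-poor mice 67, 93, 41, 95 and 80 and ran from 38.7 to 49.9 CPM in Ttr-rich libraries, a log2 difference of -0.44 (standard error 0.11). Bmp3, a secreted BMP family member, had -0.41, and Xkr4 also had -0.41. Among the rest were Cacna1e, a calcium channel subunit, at -0.34, Kcnv1, a modifier of potassium channels, at -0.32 and Kcnj3, an inward rectifier potassium channel, at -0.25. Cobl, Sorbs2, Trim9, Astn1, Lphn3 and Gas7 lay between -0.33 and -0.17. No member of the 14 reached a log2 difference of -1, and in Ttr-poor libraries Wt mouse 41 was often the highest, for example with 656 CPM of Cacna1e against 496 to 616 CPM in the other 4.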
